A study of Mus musculus with 20 samples.

Results

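The regions described here are 7714 peaks of 5-formylcytosine (5fC) that were called in *Tdg* null liver and in no other *Tdg* null tissue of E11.5 mouse embryos. They were chosen as the autosomal peaks of the null liver of embryo i1 that shared no base with any peak of 4 null hindbrains, 2 null hearts and 2 null carcasses. They made up 7.67% of the 100553 autosomal peaks of that library, and the remaining 92839 are called the other null liver peaks below. The choice rests on the null peaks themselves, so the absence from the other null tissues is a description and carries no test.

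5fC is an oxidised form of methylated cytosine. TET enzymes make it from 5-methylcytosine by way of 5-hydroxymethylcytosine, and the DNA glycosylase TDG removes it so that an unmodified cytosine can be put back. Sites that pass through this cycle hold more 5fC when TDG is lost. The liver of the midgestation embryo is made of hepatoblasts, which give rise to hepatocytes and bile duct cells, and of the blood forming cells that settle there, among which red cell precursors are abundant. GATA factors act in red cell precursors, heart and liver, whereas HNF1, HNF4A, FOXA and C/EBP factors are known for their part in hepatocyte gene control.

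The study captured 5fC from sonicated DNA with a biotinylated, cleavable chemical probe and sequenced what was captured. Its 20 libraries came from 12 embryos. Hindbrain was taken from 4 WT and 4 *Tdg* null embryos, and heart, liver and carcass (the rest of the body) each from the WT embryos i6 and i9 and the *Tdg* null embryos i1 and i5. Null embryos were homozygous offspring of heterozygous parents and carried a constitutive *Tdg* allele, disrupted by a neomycin cassette, without the sequence for the enzyme's active part. Bulk tissue was used, so the cell type that carries a peak is not known, and peaks in DNA cannot be set against expression markers of the tissue. Each file gives the start and end of peaks on a grid of 100 bp with no height, and the sequencing depth is unknown. The other null liver, of embryo i5, held 228 peaks against 101344 in embryo i1, whereas the 8 other null libraries held 104110 to 254319 and the WT libraries 1563 to 42013. The null livers thus gave a single usable library. The study set 1 null liver aside for poor quality without naming its embryo.

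Sequences of 5 liver-only regions are printed from the forward strand of NCBIM37 (mm9), in lower case with each CpG, the site where 5fC forms most often, in capitals. They are single cases and not a sample of the set: the region with a peak in both WT livers and in no other WT library, the longest region without a WT peak, the region found again in the null liver of i5, and regions in *Met* and *Bcl11a*. The latter 3 were picked after their values were seen. The windows are the central 300 bases, at chr19:16588451-16588750 in an intron of *Gna14*, chr3:92076351-92076650 in an intron of *Sprr2a3*, chr19:6612551-6612850 between genes (68232 bp from *Nrxn2*), chr6:17458401-17458700 in an intron of *Met* and chr11:24030251-24030550 in an intron of *Bcl11a*.

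Gna14: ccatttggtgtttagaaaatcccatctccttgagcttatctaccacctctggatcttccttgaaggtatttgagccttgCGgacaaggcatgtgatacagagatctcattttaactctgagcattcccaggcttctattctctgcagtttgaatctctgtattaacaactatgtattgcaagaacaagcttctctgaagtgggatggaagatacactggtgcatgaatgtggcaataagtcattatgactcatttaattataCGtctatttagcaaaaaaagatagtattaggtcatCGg

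Sprr2a3: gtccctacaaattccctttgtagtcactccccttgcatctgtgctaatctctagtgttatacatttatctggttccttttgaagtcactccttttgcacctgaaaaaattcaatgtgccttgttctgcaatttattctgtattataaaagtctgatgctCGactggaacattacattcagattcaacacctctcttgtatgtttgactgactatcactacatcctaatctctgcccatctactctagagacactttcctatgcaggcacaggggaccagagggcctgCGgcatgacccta

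Nrxn2 neighbour: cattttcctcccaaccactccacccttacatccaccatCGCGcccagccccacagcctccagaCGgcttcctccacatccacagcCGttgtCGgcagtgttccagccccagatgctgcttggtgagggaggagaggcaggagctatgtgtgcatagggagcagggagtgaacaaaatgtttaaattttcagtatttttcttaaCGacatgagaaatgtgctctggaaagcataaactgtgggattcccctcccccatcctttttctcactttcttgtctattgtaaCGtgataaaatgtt

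Met: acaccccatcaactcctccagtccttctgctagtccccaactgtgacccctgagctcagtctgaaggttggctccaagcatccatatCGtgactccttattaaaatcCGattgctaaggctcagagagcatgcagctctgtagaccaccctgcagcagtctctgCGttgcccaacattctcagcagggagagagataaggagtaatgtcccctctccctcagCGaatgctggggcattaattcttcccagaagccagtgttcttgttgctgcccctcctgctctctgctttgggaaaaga

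Bcl11a: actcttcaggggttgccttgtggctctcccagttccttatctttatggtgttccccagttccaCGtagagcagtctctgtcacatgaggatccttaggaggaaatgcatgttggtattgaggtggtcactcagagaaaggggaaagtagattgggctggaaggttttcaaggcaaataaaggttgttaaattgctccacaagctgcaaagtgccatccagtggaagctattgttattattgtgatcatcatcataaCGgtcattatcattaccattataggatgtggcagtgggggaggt

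These windows held 3, 2, 7, 4 and 2 CpGs in the order printed. The letters AGATAA, the core that GATA factors bind, occurred on either strand in the *Gna14*, *Sprr2a3*, *Met* and *Bcl11a* windows and not in the window near *Nrxn2*. The set as a whole held them less often than these 5 windows (37.0% of regions, below), and the windows of the 3 longest printable regions with a peak in 1 WT liver and in no other WT library, near *Lrguk* and *Krr1* and in *Rps6kc1*, held none. The *Sprr2a3* window is repeated sequence: its central 32 bases occurred 65 times in the genome, against 1 time for each of the other 4 windows. Of all liver-only regions, 3.55% had central bases with more than 1 copy and 1.65% with more than 10, against 1.77% and 0.664% of the other null liver peaks.

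Liver-only regions were short. Their median length was 400 bp (middle 50% of regions 300 to 500 bp, longest 2600 bp), and that of the other null liver peaks was 700 bp (500 to 900 bp, longest 9600 bp). Together they covered 3.47 Mb, against 73.8 Mb for the other null liver peaks. Of the 200 bp peaks of the library, 36.4% (1273 of 3496) were liver-only, with a 95% exact (Clopper-Pearson) interval of 34.8 to 38.0%. The share was 19.5% at 400 bp, 4.91% at 600 to 700 bp and 0.123% (8 of 6488) at 1500 bp or more. Length and choice are linked by construction, since a longer peak has more bases that can meet another peak. Intervals around shares of regions cover counting error only, because all regions come from 1 library.

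**Figure D1:**
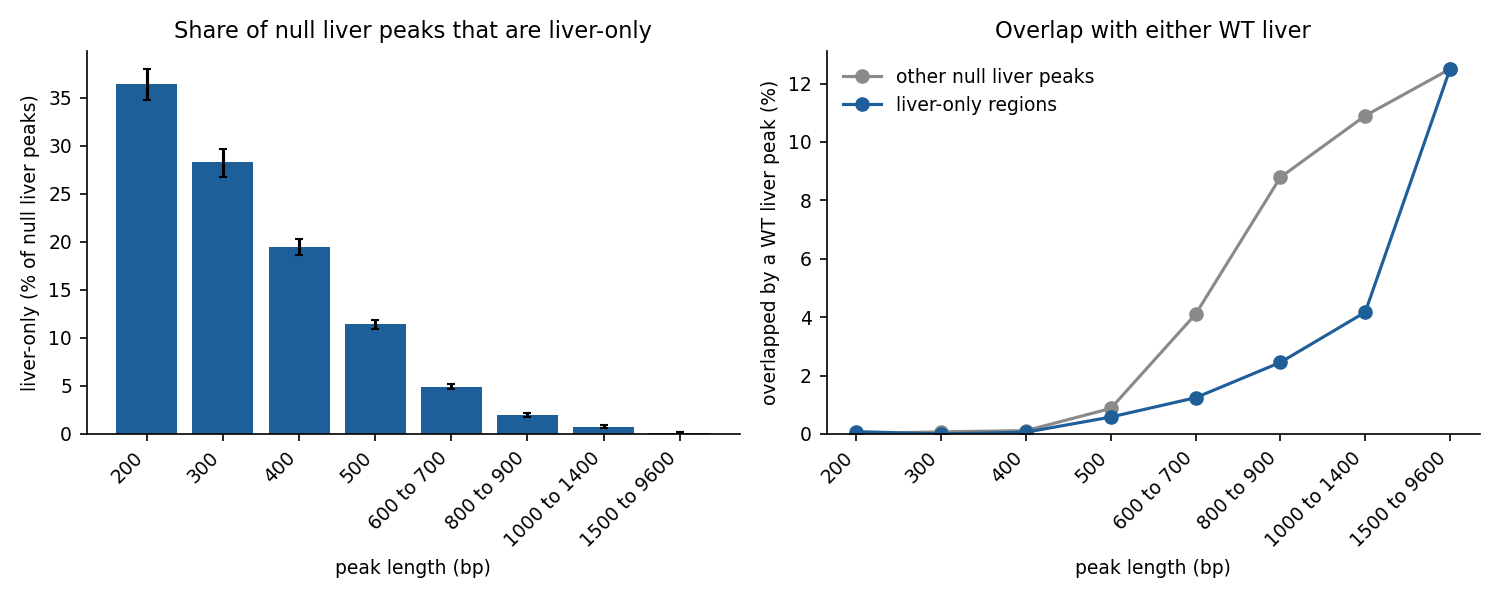
Left, the percentage of null liver peaks that were liver-only by peak length in bp, with 95% exact intervals; right, the percentage overlapped by a peak of either WT liver in liver-only regions (blue) and other null liver peaks (grey). The liver-only share falls from 36.4% at 200 bp to 0.123% at 1500 bp or more, where the right-hand blue point rests on 8 regions.

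Liver-only regions lay closer to 5fC of other null tissues than the genome outside those peaks does. The median gap to the nearest peak of the 8 other null libraries was 1300 bp, 44.4% had such a peak within 1000 bp, and 95.1% within 10000 bp. For 193423 genome windows of 300 bp, placed every 10 kb and free of those peaks, the median gap was 2751 bp, with 26.5% within 1000 bp and 77.1% within 10000 bp. The liver-only regions of 300 bp had a median gap of 1600 bp. At the edge of the rule, 277 regions touched a peak of another null tissue without sharing a base and 638 lay within 100 bp of one (median length 500 bp), while 220 peaks were left out for sharing 100 bases or fewer (median length 300 bp). At the far end, 376 regions had no other null peak within 10000 bp, and the widest gap was 400100 bp.

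A single library set much of the boundary. The null heart of i1, which has the most peaks of the series, overlapped 80.8% of the null liver peaks, against 49.2% for the null heart of i5, 52.0% and 64.1% for the carcasses and 33.0 to 39.9% for the hindbrains. Of the 11612 null liver peaks that met exactly 1 of the 8 libraries, 8635 met the null heart of i1. Without that library in the rule there would be 16349 liver-only regions, and without any of the other 7 between 7764 and 9354. Liver and heart of i1 come from the same embryo.

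The null liver peaks formed a series by the number of other null libraries that shared them, from 7714 with 0 to 12705 with all 8. Along it, the median length rose from 400 to 900 bp and the mean number of CpGs in the central 300 bp from 4.17 to 6.75. Mean GC content rose from 44.4 to 49.3%. The liver-only regions thus lay at the short and CpG-poor end of the same library, and still held more CpGs than windows of 300 bp placed every 10 kb along the autosomes, which had a mean of 2.54. A CpG was missing from 0.324% of the liver-only windows and from 18.7% of the genome windows.

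**Figure D2:**
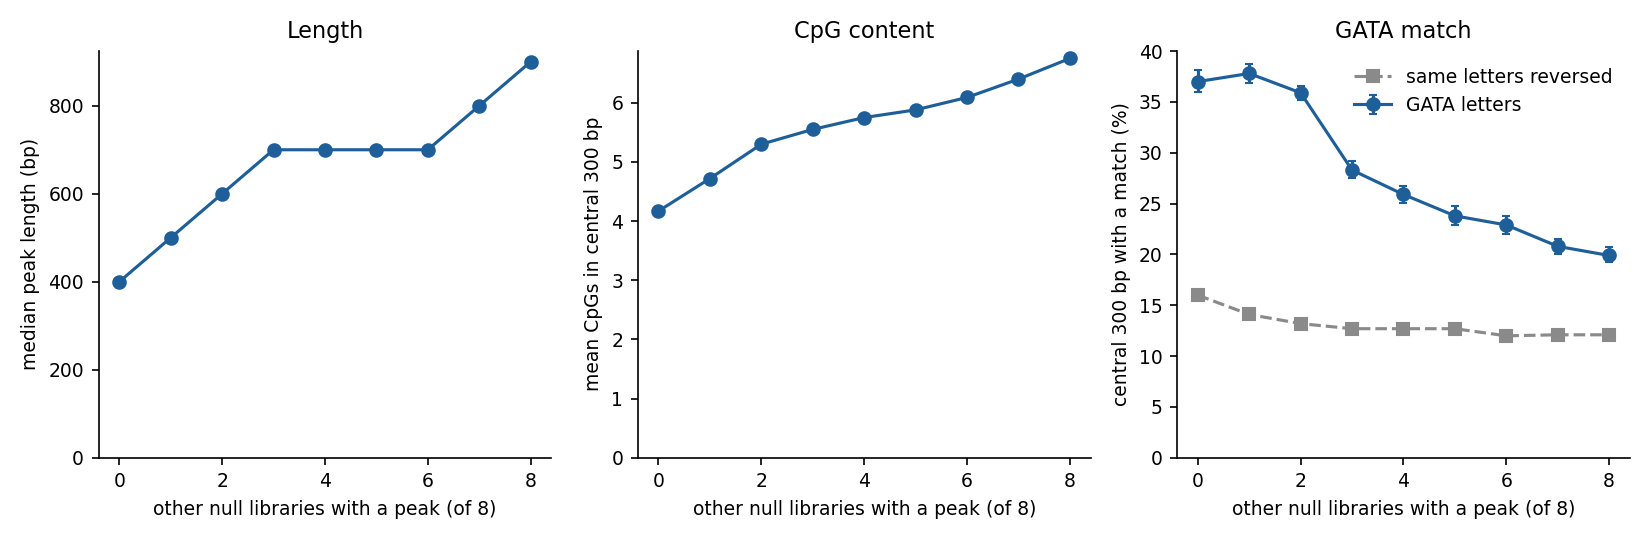
Null liver peaks grouped by how many of the 8 other null libraries have a peak over them; liver-only regions are at 0. Panels give the median length in bp, the mean number of CpGs in the central 300 bp, and the percentage of central windows with AGATAA on either strand (blue, 95% exact intervals) or with the same letters in reversed order (grey); the GATA share falls from 37.0% at 0 libraries to 19.9% at 8.

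The WT livers overlapped few liver-only regions. The WT liver of i6, with 16368 autosomal peaks, overlapped 39 of 7714 (0.506%, 95% exact interval 0.360 to 0.690%), while it overlapped 5.03% of all null liver peaks. For the WT liver of i9, with 1740 autosomal peaks, the count was 7 (0.0907%, 0.0365 to 0.187%), beside 0.737% of all null liver peaks. Either WT liver overlapped 44 regions (0.570%), beside 5.32% of all null liver peaks. Both overlapped 2 (0.0259%), beside 0.473% of the other null liver peaks. Without the null heart of i1 in the rule, the share overlapped by either WT liver would be 1.69%. The share in the liver-only set was thus below the background of its own library in each WT liver. The null liver of i5 overlapped 1 liver-only region, and 0.0229% of all null liver peaks.

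At equal length the shares were closer to each other as a ratio than over all lengths (0.570% and 5.72%). In percentage points the gap was wider at 800 to 900 bp and at 1000 to 1400 bp. Among peaks of 500 bp, a WT liver overlapped 0.578% of the liver-only regions and 0.872% of the other null liver peaks. The shares were 1.24% and 4.10% at 600 to 700 bp, 2.45% and 8.79% at 800 to 900 bp, and 4.17% and 10.9% at 1000 to 1400 bp. At 1500 bp or more both were 12.5%, from 1 liver-only region. At 400 bp they were 0.0580% and 0.112%, from 1 and 8 peaks, a difference that is not detectable at these counts.

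WT peaks of other tissues were present in the set too, so the regions are liver-only with respect to null peaks and not to every library. The WT carcasses overlapped 105 and 100 regions (1.36% and 1.30%), the WT hearts 21 each (0.272%), and the 4 WT hindbrains 0, 2, 14 and 0. Each share was below that in the other null liver peaks. There the carcasses overlapped 17.8% and 15.1%, the hearts 1.60% and 3.30%, and the hindbrains 0.501%, 3.70%, 7.69% and 0.581%. In total 241 regions (3.12%) met a WT peak of any tissue, beside 27.5% of all null liver peaks. Of these, 197 met a WT peak of another tissue and none of a WT liver (2.55% of the set, beside 23.8% of the other null liver peaks). No WT peak at all lay over 7473 regions (96.9%), beside 70.4% of the other null liver peaks. Where a WT hindbrain overlapped 0 of 7714, the upper bound of the exact interval is 0.0478%.

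To compare WT tissues with unequal numbers of peaks, the share of liver-only bases covered by each WT library was divided by the share it covered of the autosomal genome outside the peaks of the 8 other null libraries (2049 Mb). Removing regions with peaks in null hindbrain, heart and carcass lowers the WT libraries of those tissues by construction, and the expectation over the remaining genome was chosen to offset this. The WT livers covered liver-only bases 4.43-fold (i6) and 11.5-fold (i9) more often than that genome. On the log2 scale, after adding 400 bases to the covered bases of each library, the WT livers were at 2.19 and 3.74, the WT hearts at 1.43 (i6) and 4.85 (i9), the WT carcasses at 3.42 and 3.44, and the WT hindbrains between 0.49 and 1.52. Without the added bases the hindbrains covered liver-only bases 0-, 0.755-, 2.60- and 0-fold as often as that genome, so 3 of their 4 positive log2 values come from the addition. The hearts were at 2.53-fold (i6) and 27.6-fold (i9) and the carcasses at 10.6-fold and 10.7-fold on that scale. The liver values lay within the range of the WT hearts and on either side of the carcasses, and above all 4 hindbrains. The mean was 2.97 ± 1.10 (SD, n = 2) in liver and 2.05 ± 1.64 (SD, n = 8) in the other WT libraries. The difference of 0.91 was within the spread between libraries (two-sided exact permutation test over 45 assignments, p = 0.444, smallest possible p = 0.0444). Paired within the same WT embryo, as a replicate block, liver minus the mean of heart and carcass was -0.23 in i6 and -0.41 in i9, opposite in sign to the pooled difference, whose comparison group holds the 4 hindbrains.

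**Figure D3:**
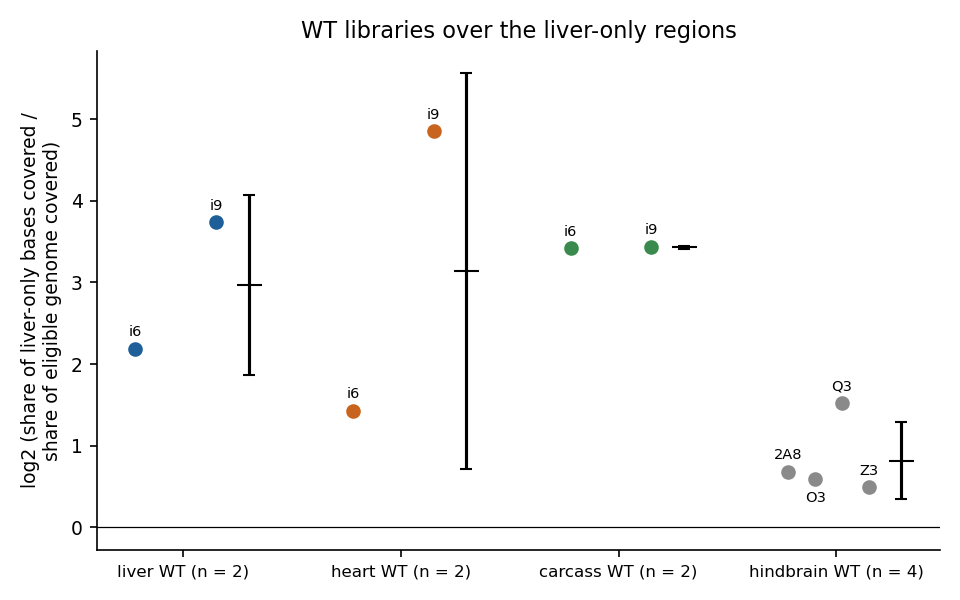
Each point is 1 WT library, labelled by embryo: the log2 ratio of the share of liver-only bases it covers to the share of the eligible autosomal genome it covers. Bars give mean ± SD per tissue. The 2 livers, at 2.19 and 3.74, fall between the 2 hearts, at 1.43 and 4.85, and above the 4 hindbrains.

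The same rule applied to the other tissues of embryo i1 gave larger sets. It gave 92231 heart-only regions (36.7% of 251271 peaks, median 600 bp) and 30565 carcass-only regions (18.6% of 164127, median 500 bp). The other null embryo, i5, held a peak over 34.0% of the heart-only and 68.9% of the carcass-only regions in the same tissue, replicates the rule had not used, beside 50% and 89.2% of the other peaks of those heart and carcass libraries. The liver-only regions have no counterpart of this check, since the null liver of i5 holds 228 peaks. WT libraries of the same tissue overlapped 0.887% of heart-only and 6.74% of carcass-only regions, against 3.40% and 22.0% of the other peaks of the same libraries. For liver the shares were 0.570% and 5.72%. For each set the eligible genome was set anew, as the genome outside the null peaks of the other tissues. On the log2 scale their own WT libraries stood at 2.12 and 4.0 for heart-only and at 4.06 and 4.52 for carcass-only regions. They stood at 2.19 and 3.74 for liver-only regions. The liver values thus resembled those of heart in size and were below those of carcass. These sets differ in length, in number of WT peaks and in the eligible genome behind each value, and the difference was not tested.

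The GATA core was frequent in the liver-only regions. AGATAA, searched on both strands in the central 300 bp, occurred in 2857 liver-only regions (37.0%, 95% exact interval 36.0 to 38.1%). It occurred in 27.8% of the other null liver peaks, 30.7% of heart-only and 14.3% of carcass-only regions, and in 19.3% of the genome windows. On each of the 19 autosomes the share was higher in liver-only regions than in the other null liver peaks, as was that of the reversed letters given below. These shares describe regions of single libraries, and no test was made over regions.

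Base composition moved with this result, since liver-only regions had a lower GC content than the other null liver peaks. Within windows of 45 to 50% GC, the share with AGATAA was 33.7% in liver-only regions (31.8 to 35.7%), 28.8% in other null liver peaks, 30.4% in heart-only, 11.2% in carcass-only regions and 13.5% of genome windows. At 40 to 45% GC the shares were 39.9%, 36.4%, 38.6%, 16.1% and 19.2% in the same order, and at 50 to 55% GC 20.8%, 20.2%, 22.3%, 7.64% and 9.87%. The heart-only share thus lay below the liver-only interval at 45 to 50% GC and within it at 40 to 45% (38.0 to 41.8%) and 50 to 55% GC (18.3 to 23.5%). At 35 to 40% GC the liver-only share was 49.1% (46.4 to 51.7%) and the heart-only share 46.5%, and at 55 to 60% GC they were 12.4% (8.36 to 17.6%) and 14.5%, with 12.5% in other null liver peaks. At 30 to 35% GC, where 223 liver-only regions lie, 60.1% (53.3 to 66.6%) held the letters against 49.6% of heart-only regions. The carcass-only and genome shares were below the liver-only interval in all 6 classes (26.8% and 28.9% at 30 to 35% GC, 4.94% and 6.20% at 55 to 60% GC). The same 6 letters in reversed order, AATAGA, occurred in 16.0% of liver-only regions, 12.8% of other null liver peaks, 14.4% of heart-only, 15.5% of carcass-only regions and 19.5% of genome windows. This control and the GC classes were added after the first shares were seen.

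The GATA share followed how widely a null liver peak was shared. It was 37.0% with 0 other null libraries, 37.8% with 1 and 35.9% with 2, then 28.3% with 3 and 19.9% with all 8, while the reversed letters went from 16.0 to 12.1%. The share was 34.3% in the 1904 liver-only regions of at least 600 bp and 26.8% in other null liver peaks of that length. It was 37.5% in the 1273 regions of 200 bp, 43.1% (38.0 to 48.3%) in the 376 regions with no other null peak within 10000 bp, and 43.2% (28.3 to 59.0%) in the 44 regions with a WT liver peak. The 200 bp and the isolated regions also had a lower mean GC content (42.7% and 42.5%) than the whole set (44.4%).

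Cores of hepatocyte factors were searched in the same way. The HNF4A letters CAAAGTNCA occurred in 2.50% of liver-only regions (2.16 to 2.88%), against 1.75% of other null liver peaks, 1.58% of heart-only, 1.62% of carcass-only regions and 1.53% of genome windows. For the FOXA core TGTTTAC the shares were 5.82%, 4.68%, 4.01%, 3.93% and 4.48%. The reversed FOXA letters CATTTGT also occurred more often in liver-only regions (7.49%) than in the other null liver peaks (6.56%), whereas the reversed HNF4A letters ACNTGAAAC occurred in 0.959% and 0.953%. The HNF1 letters GTTAATNAT were found in 1.15% and the C/EBP letters TTNNGCAA in 14.1% of liver-only regions, beside 0.890% and 12.8% of other null liver peaks, 0.593% and 11.7% of heart-only, 1.31% and 13.8% of carcass-only regions and 1.07% and 13.6% of genome windows. The reversed HNF1 letters TANTAATTG were in 0.804% of liver-only regions and 0.60% of other null liver peaks.

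The KLF, MEF2 and E-box cores were less frequent in the liver-only regions than in the rest of the library. The KLF letters CCACACCC, which red cell KLF factors bind, were in 1.76% of liver-only regions, 2.46% of other null liver peaks, 2.81% of heart-only, 1.38% of carcass-only regions and 1.86% of genome windows. Their reversed form CCCACACC was also lower in liver-only regions (1.49%) than in other null liver peaks (1.83%). MEF2, a heart and muscle factor, has the letters CTAAAAATA, which occurred in 0.506% of liver-only, 0.968% of other null liver peaks, 1.57% of heart-only, 0.510% of carcass-only regions and 0.793% of genome windows. Its reversed letters ATAAAAATC were in 0.583% of liver-only regions and 0.449% of other null liver peaks. The E-boxes are bound by factors of several tissues, muscle and neural ones among them. CAGCTG was in 15.2% of liver-only regions against 21.4% of other null liver peaks, and CAGATG in 22.4% against 26.0%, lower on 19 and on 17 of the 19 autosomes, while the reversed letters of the latter, GTAGAC, were in 8.52% and 8.14%. Heart-only regions held them in 17.5% and 22.8%, carcass-only regions in 20.7% and 31.3% and genome windows in 10.9% and 21.8%. A match says that the letters are present in the window and is not a measured binding site. None of the patterns contains another.

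**Figure D4:**
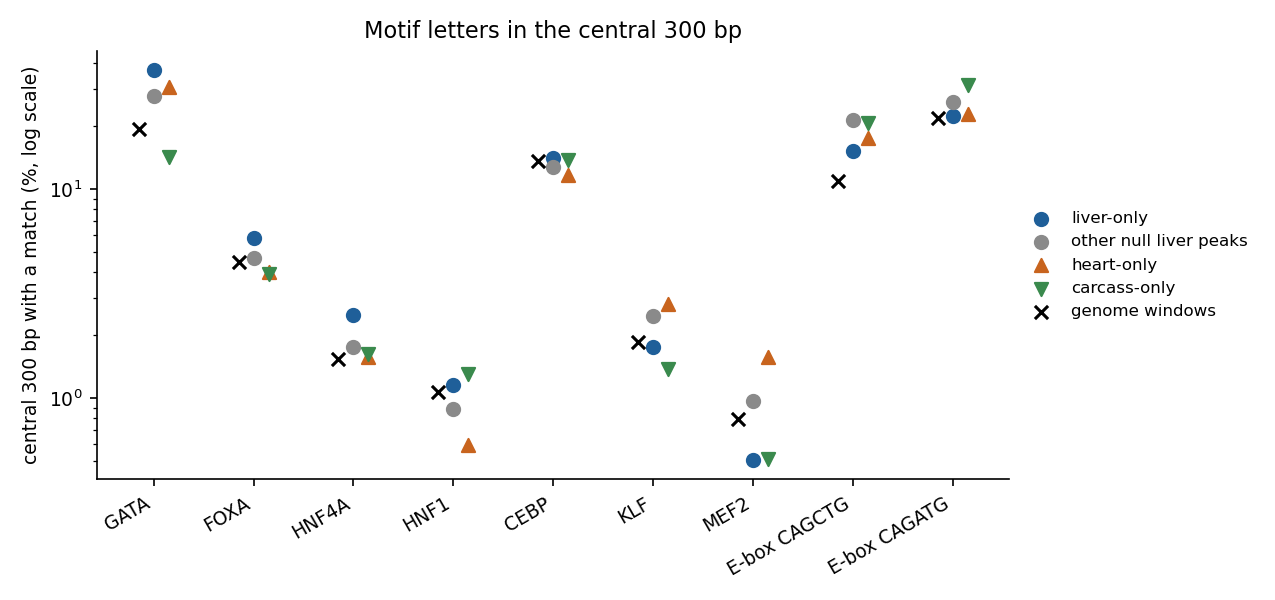
Percentage of central 300 bp windows with each set of motif letters on either strand (log scale), for liver-only regions, other null liver peaks, heart-only and carcass-only regions of embryo i1 and genome windows. GATA stands at 37.0% in liver-only regions and 14.3% in carcass-only regions, and MEF2 at 0.506% in liver-only and 1.57% in heart-only regions.

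Liver-only regions lay between genes more often than the rest of the library. By midpoint, 52.1% were intergenic (51.0 to 53.2%) against 42.0% of other null liver peaks, 41.7% were intronic, 4.03% against 4.94% exonic, and 2.20% against 3.13% in promoters (1000 bp upstream of a transcription start). CpG islands held 1.15% against 3.32%, and the 2000 bp on either side of an island 9.23% against 15.4%. Among peaks of 300 to 500 bp the intergenic shares were 52.8% and 47.0%, higher in liver-only regions on 18 of 19 autosomes, and the island shares 1.04% and 2.11%. The genome windows were intergenic in 57.2% and in islands in 1.46%. The median distance to the nearest start of a protein-coding transcript was 47.7 kb, against 33.0 kb for other null liver peaks and 48.3 kb for genome windows. At 300 to 500 bp it was 51.2 kb against 44.7 kb. The liver-only regions thus lay near the genome windows in their distance to genes, and between these windows and the rest of the library in their share between genes.

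**Figure D5:**
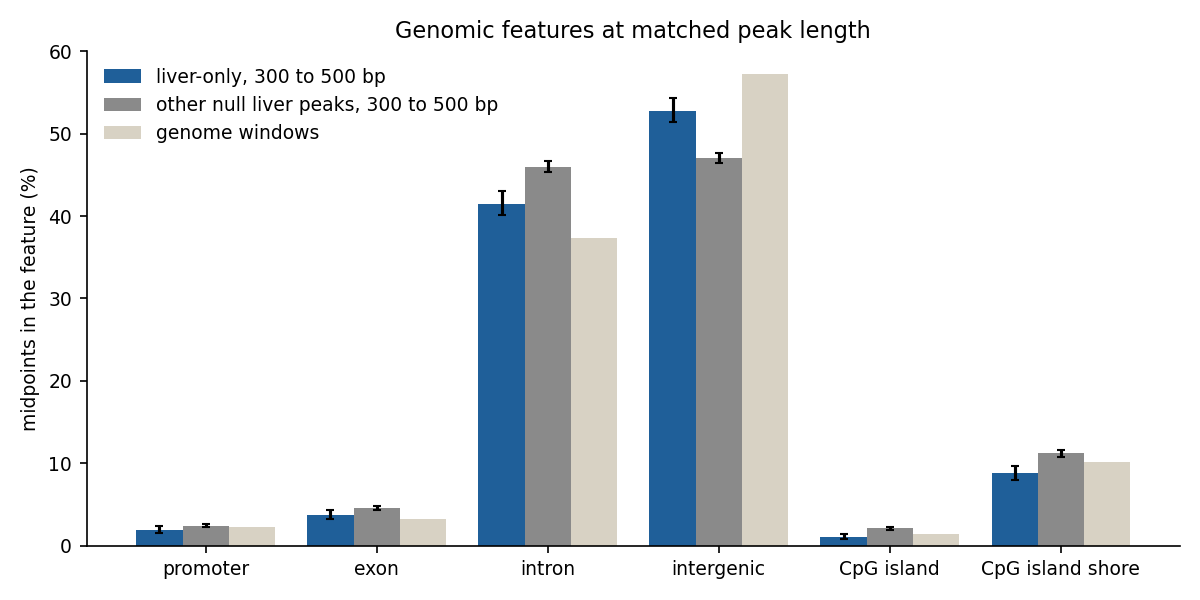
Percentage of midpoints in each feature for liver-only regions and other null liver peaks of 300 to 500 bp (95% exact intervals) and for genome windows. Intergenic midpoints make up 52.8% of the former and 47.0% of the latter.

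Repeated sequence was uncommon, though more frequent than in the rest of the library. The central 32 bases occurred more than once in the genome for 274 liver-only regions (3.55%), 1.77% of the other null liver peaks and 15.4% of genome windows. Among the 10 longest regions it was 3, all without a WT peak: the region in *Sprr2a3* (2600 bp, chr3:92075201-92077800), a small proline-rich protein gene of the epidermis, and 2 regions of chromosome 14, at chr14:43996001-43998300 and chr14:43953401-43955000, each with 2 copies. The length of such regions may include reads that align to several places, which was not tested.

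The other long regions were single copy. Regions of 1600 bp at chr2:32273701-32275300 and chr9:20914701-20916300 overlapped exons of *Slc25a25*, a mitochondrial carrier, and *Tyk2*, a kinase of cytokine receptors. A 1700 bp region in an intron of *Ccbe1*, which acts in lymphatic vessel growth, at chr18:66418901-66420600, was the longest with a peak in 1 WT liver and in no other WT library. In *Adamts2*, a procollagen protease, an intronic region at chr11:50500201-50501600 measured 1400 bp, and a region of the same length at chr11:115121001-115122400 overlapped an exon of *Grin2c*. Regions of 1500 bp lay 3724 bp from *Atrnl1* (chr19:57680301-57681800, with a peak in 1 WT library that was not liver) and 33064 bp from *Corin* (chr5:72656701-72658200).

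Both WT livers had a peak over 2 regions (0.0259%), beside 0.473% of the other null liver peaks. The 800 bp region in *Gna14*, a G protein subunit gene, at chr19:16588201-16589000, met no other WT library and lay 2200 bp from the nearest other null peak. The second, 700 bp at chr4:152153401-152154100 and 216109 bp from *Nphp4*, held 13 CpGs in its central 300 bp, met 5 WT libraries and lay 200 bp from another null peak. The region found in the null liver of i5, 600 bp at chr19:6612401-6613000, met no WT peak. A peak in either WT liver and in no other WT library was found for 36 regions (0.467%, 0.327 to 0.646%), beside 2.34% of the other null liver peaks. The longest of these after *Ccbe1* were 1100 bp at chr6:33964901-33966000, 13448 bp from *Lrguk*, and 1000 bp at chr10:111286301-111287300, 122420 bp from *Krr1*.

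Of 21418 autosomal protein-coding genes, 2230 (10.4%) held the midpoint of at least 1 liver-only region. The share rose with gene length, from 0.994% of genes under 10 kb to 76.7% of genes of 300 kb or more, so lists of long and short genes cannot be set against each other directly. Of 28 hepatocyte genes 27 were matched and 6 (22.2%) held a region, with 7 of their 61 null liver peaks (11.5%) being liver-only. With regions of at least 600 bp alone, 1 hepatocyte gene held a region, beside 3.78% of all protein-coding genes (810). The corresponding share of peaks over all protein-coding genes was 6.38%. *Met*, the receptor for hepatocyte growth factor, held 2 of its 11 peaks as liver-only regions, at 700 and 600 bp. *Fgb*, a fibrinogen chain, and *Onecut1*, a transcription factor of liver development, each held 1 null liver peak, and it was liver-only.

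The other 3 hepatocyte genes were *Alb*, *Cps1* and *Nr5a2*, with 1 region each of 2, 2 and 14 peaks. *Cps1* codes for the entry enzyme of the urea cycle and *Nr5a2* for a nuclear receptor of liver and gut. In *Alb*, the gene of serum albumin, the region spanned the gene start (400 bp, chr5:90889801-90890200, 1500 bp from the nearest other null peak) and no WT library had a peak over it. It is described because of its position, which was noticed after the values were seen. The 114 bases of it upstream of the gene start, chr5:90889801-90889914 on the forward strand, which is also that of the gene, held 2 CpGs, shown in capitals, and 1 match each to the HNF1 and C/EBP letters, at bases 64 and 2.

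Alb upstream: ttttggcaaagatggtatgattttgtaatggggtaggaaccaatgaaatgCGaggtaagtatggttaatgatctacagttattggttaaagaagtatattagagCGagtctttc

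In the blood lists the share of liver-only peaks was low. Of the 19 erythroid genes 1 held a region, *Bcl11a*, a repressor of globin genes, with 1 of its 16 peaks (800 bp, in an intron). Over the erythroid list 1 of 61 null liver peaks (1.64%) was liver-only, and over the blood stem and myeloid list, where 3 of 18 matched genes held a region, 3 of 221 (1.36%). The latter lay in *Itga2b*, an integrin chain of megakaryocytes and early blood cells, and in the stem cell factors *Meis1* and *Mecom*, which held 1 of 3, 1 of 30 and 1 of 59 peaks. Both shares of peaks were below the 6.38% of all protein-coding genes. The shares of genes with a region, 5.26% (erythroid) and 16.7% (blood stem and myeloid), lay on either side of the 10.4% of all protein-coding genes. Median gene length was 17.4 kb and 62.1 kb in these lists and 15.5 kb over all protein-coding genes.

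Of 15 endothelial genes 4 held a region, which made up 4 of 65 peaks (6.15%), close to the 6.38% of all protein-coding genes: *Cdh5*, the endothelial cadherin (1 of 4, 1000 bp), *Emcn*, a surface sialomucin (1 of 4, 200 bp), *Kdr*, the main VEGF receptor (1 of 5), and *Stab2*, a scavenger receptor of sinusoids (1 of 9). None of the 11 genes of the liver mesenchyme and mesothelium list held a region among their 43 null liver peaks, beside 10.4% of all protein-coding genes and 6.38% of their peaks.

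Genes of other tissues held liver-only regions as well. Of 20 heart genes 1, *Ryr2*, the calcium release channel, did so, with 4 of its 34 peaks, all in introns, and the list had 4 of 123 (3.25%). Over all protein-coding genes 10.4% held a region and 6.38% of peaks were liver-only. Of 25 hindbrain genes 3 did: *Lmx1a*, a roof plate factor, held 4 of 19 peaks, *Pax7*, a dorsal neural and muscle factor, 1 of 6 and *Dcc*, a netrin receptor, 1 of 13, giving 6 of 47 peaks (12.8%), a share as high as that of the hepatocyte list. With regions of at least 600 bp alone, 0 of the 25 hindbrain genes held one, beside the same 3.78% of all protein-coding genes. Of the 25 liver-only regions in listed genes 0 met a peak of any WT library, beside 3.12% of all liver-only regions.

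Genes with the most liver-only regions were long ones. *Macrod2* (1998 kb) held 17 of 102 null liver peaks as liver-only regions, *Etl4* (901 kb) 16 of 64 and *Prkg1* (1196 kb), a cGMP-dependent kinase, 13 of 63. *Gm20388*, *Gpc5* and *Ppp2r2b* held 12 each, *Fgfr2* and *Gpc6* 11 each, and *1700112E06Rik* and *Hs6st3* 9 each. *Gpc5*, *Gpc6* and *Hs6st3* code for 2 glypicans, which carry heparan sulfate, and a heparan sulfate sulfotransferase. In *Gpc5* the liver-only share was 31.6% of 38 peaks, and in *Gm20388*, annotated over 4435 kb, 2.32% of 518. *Fgfr2* was annotated over 3009 kb, and 6.15% of its 179 peaks were liver-only, below the 7.67% of the library. Among all of these, 1 region, in *Hs6st3*, met a WT liver peak.

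Relative to length, and among the 88 genes with at least 5 regions, *Smoc2*, a secreted calcium-binding matrix protein, ranked first with 5 regions in 125 kb (3.99 per 100 kb, 29.4% of its 17 peaks). *St6gal1*, a sialyltransferase abundant in liver, followed with 5 in 136 kb (3.69 per 100 kb, of 28 peaks), then *Ppp2r2b*, a phosphatase subunit, with 2.84 and *Bckdhb*, a subunit of the mitochondrial branched-chain keto acid dehydrogenase, with 2.51 per 100 kb. *Kcnab1*, *Fggy*, *Pappa*, *Arhgap42*, *Spock1* and *2810055G20Rik* lay between 1.86 and 2.23 per 100 kb. The highest liver-only share among these 10 genes was 35.7%, in *Pappa*, 5 of 14 peaks. These counts come from 1 library, so their spread between embryos is unknown.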

How the data were processed

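The authors trimmed reads with Trim Galore, used Bowtie2 for alignment (build NCBIM37, also called mm9) and ran the MACS caller of SeqMonk separately on every library. The deposited positions are peak starts and ends, without heights, scores or read counts, so a weak site just under the caller's threshold is indistinguishable from an empty one. Positions were read as 1-based and inclusive. Samples were grouped by the labels, and members and gene and motif lists were chosen with earlier results of these data known.

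Overlap means at least 1 shared base. Midpoints were placed in promoters, exons, introns or between genes of the GENCODE annotation of NCBIM37 (GENCODE M1), in that order. CpG islands were stretches of at least 200 bp with GC of at least 50% and observed over expected CpG above 0.6. Genome windows numbered 239343. Symbols with no single match were dropped (*Trf*, *Gfi1*), and older names were matched through RefSeq synonyms. From each list the 3 genes with most liver-only regions are named, with the 10 genes highest in number and the 10 highest per length, and the 10 longest regions; other members of small counts were named after their values were seen. Printed sequences were the central 300 bases free of exons (chromosome 18 is not shown), and 1 of a possible 5 regions with both WT livers and no other WT library existed. Exact permutation tests ran over libraries and were tested on simulated intervals, as were the overlap functions. Alternatives were stricter lengths, other overlap rules, a margin of 500 bp, stretches under at least 2 replicates, the same embryo only, chromosome X, other expectations and each library left out. Python 3.11.15, numpy 2.4.6, pandas 2.3.3, scipy 1.17.1, numba 0.67.0 and matplotlib 3.10.9 were used.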

Additional observations from a re-analysis of the deposited data

How the results depend on the processing

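The number of liver-only regions was 1904 with peaks of at least 600 bp, 24961 when only stretches under peaks of at least 2 replicates of a tissue excluded a peak, and 11862 when only heart and carcass of embryo i1 did. It ranged from 7764 to 16349 with each null library left out, the highest without the null heart of i1. The share overlapped by a WT liver was 1.68% at 600 bp or more, 2.07% with 2 replicates, 0.776% with the same embryo, 0.259% when a WT peak had to cover at least 50% of the region, and 0.242% at 300 to 500 bp (added after seeing the data). With each library left out it ranged from 0.0907% (without the WT liver of i6) to 1.69% (without the null heart of i1). The WT liver difference was 0.14 to 1.69 on the log2 scale with each library left out, 0.10 with the same embryo only, 0.52 without added bases and the libraries at 0, 1.48 with an expectation over the whole genome and 1.54 when a null peak had to share at least 50% of the liver peak. The exact p was 0.178 to 0.978 over its alternatives without a block. It could not fall below 0.05 with any WT library, or both at 0, left out (with 1 WT liver left, 0.222). The difference reversed to -0.32 with the replicate block over 2 embryos, where the smallest exact p is 0.5. The intergenic share was 48.2% at 600 bp or more, and 7 in place of 18 listed genes then held a region. With 10 kb on either side 25 listed genes did, while the count over all 21418 protein-coding genes went from 2230 to 3152. The GATA share was 34.3 to 38.9% over its alternatives. At 600 bp or more the share of all protein-coding genes with a region went from 10.4% to 3.78%, the hepatocyte list from 6 genes to 1, the hindbrain list from 3 to 0, the blood stem and myeloid list from 3 to 1 and the endothelial list from 4 to 3, while the erythroid and heart lists stayed at 1. Depth is unknown, the null liver has no usable replicate, and no height ranks the regions, so how many would recur in another embryo cannot be given.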

Other observations

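Liver-only regions were spread over all 19 autosomes, from 6.25% of the null liver peaks of chromosome 17 to 9.04% of those of chromosome 14. Per 1 Mb window the highest number was 18 (15.4% of 117 null liver peaks), at chr5:120000001-121000000. This window holds the T-box genes *Tbx3* and *Tbx5*, the LIM homeobox gene *Lhx5* and the serine dehydratase gene *Sds* with its relative *Sdsl*. A window of chromosome 17 with *Smoc2* and *Thbs2* and a window of chromosome 8 with *Maf* as its protein-coding gene held 16 regions each (19% and 17.6% of their peaks). Windows with *Adamts12* and *Npr3* on chromosome 15 and with *Gfra1* on chromosome 19 held 15 each. These windows were ranked on the same counts, so no test applies to them.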
